A study of Mus musculus with 4 samples.

Results

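Microglia are the resident macrophages of the brain parenchyma. They settle in the brain before birth, depend on signalling through the receptor Csf1r, and are recognised by surface genes of the resting state such as P2ry12, Tmem119 and Cx3cr1. In the postnatal brain they clear dying cells and prune synapses, the latter with the help of complement C1q. They recognise coated targets through Fc receptors that signal through the adaptor Fcer1g, and the adaptor Tyrobp serves Trem2 and related receptors.

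A list of 37 genes of microglial identity and receptors was followed in the cerebrum of 2 mouse models lacking Mfsd2a in endothelium. The genes were taken by symbol, and they were divided by role into resting identity receptors and markers (12 genes), complement C1q chains (3), Fc receptors and signalling adaptors (5), transcription factors (3), leukocyte surface, integrin and costimulatory genes (8), and lysosomal, phagocytic and cytoskeletal genes (6). All 37 were matched to a probe set, among 18194 genes on the array, and 35 had a mean signal of at least 50 over the arrays, among 12426 genes. The remaining genes were the integrin chains Itgam, with signals of 26.7 to 45.2, and Itgax, with signals of 29.5 to 42.9, which therefore enter no count below.

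Mfsd2a transports lysophosphatidylcholine carrying docosahexaenoic acid into the brain. The 4 groups were mice homozygous for the floxed Mfsd2a allele (2afl/fl) and mice with the same allele and Tie2-cre (2aECKO), both at postnatal day 9, 2afl/fl mice given 4-OHT, and mice with the floxed allele and Cdh5ERT2-cre also given 4-OHT (2aiECKO), both at postnatal day 8. Each group was 1 pool of RNA from 5 to 6 cerebrums, read on 1 Affymetrix mouse array, so there are no replicates, no test and no error for any single value. Tie2-cre is active from the embryo onwards and also recombines in blood-forming cells, including the lineage of microglia, while Cdh5ERT2-cre acts in endothelium once 4-OHT is given. The models therefore differ in cre line, age, 4-OHT and time of deletion at once, and these cannot be told apart. For the 2aiECKO pool, 1 label (the source name) says 2aECKO, whereas title and genotype say 2aiECKO, and the latter were followed.

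The deposited signals of the 2 pairs were on different scales. The median signal was 74.1 and 75.5 in the first pair and 48.7 and 49.2 in the second, so folds were taken within each pair, and signals of the pairs are not compared unless a common scale is stated. Mfsd2a itself, the deleted gene, read 423 in 2afl/fl, 410 in 2aECKO, 369 in the 4-OHT control and 299 in 2aiECKO. Where its probe set lies against the excised exons was not given in any source read here, and other brain cells transcribe the gene too, so these values check no label. The log2 folds of all 12426 genes had a median of -0.01 in 2aECKO and -0.00 in 2aiECKO, and a robust standard deviation (scaled from the median absolute deviation) of 0.12 and 0.10. Alas2, a gene of red cell precursors, differed from its control by 1.05 (log2) in 2aECKO and by -0.51 in 2aiECKO. Its mean signal was 50.6, and it read 36.8 and 25.8 in the second pair. The red cell genes Hba-a1 and Slc4a1 had mean signals below 50 and log2 folds of -0.1 in both models. The paper states that mice were perfused with PBS before cerebrums were taken. The share of blood RNA in the values below was not tested.

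The microglial genes were higher in 2aiECKO brain across most roles, and were not higher as a group in 2aECKO brain. A gene was counted as higher when its signal was at least 25% above that of the control, a log2 fold of 0.32, and as lower when it was at least 20% below, a log2 fold of -0.32. These bounds are the threshold throughout. In 2aiECKO 23 of 35 genes were higher, or 65.7%, against 1.82% of all genes tested, and 0 were lower, against 0.547%. The remaining 12 lay in between. In 2aECKO 1 gene was higher, against 2.04% of all genes, 4 were lower, or 11.4% against 1.44%, and 30 lay in between. The median log2 fold of the 35 genes was 0.44 in 2aiECKO, with genes from -0.14 to 0.80, and 0.05 in 2aECKO, with genes from -0.46 to 0.39. In these bulk samples a change in the number of microglia and a change in RNA per cell cannot be told apart.

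**Figure D1:**
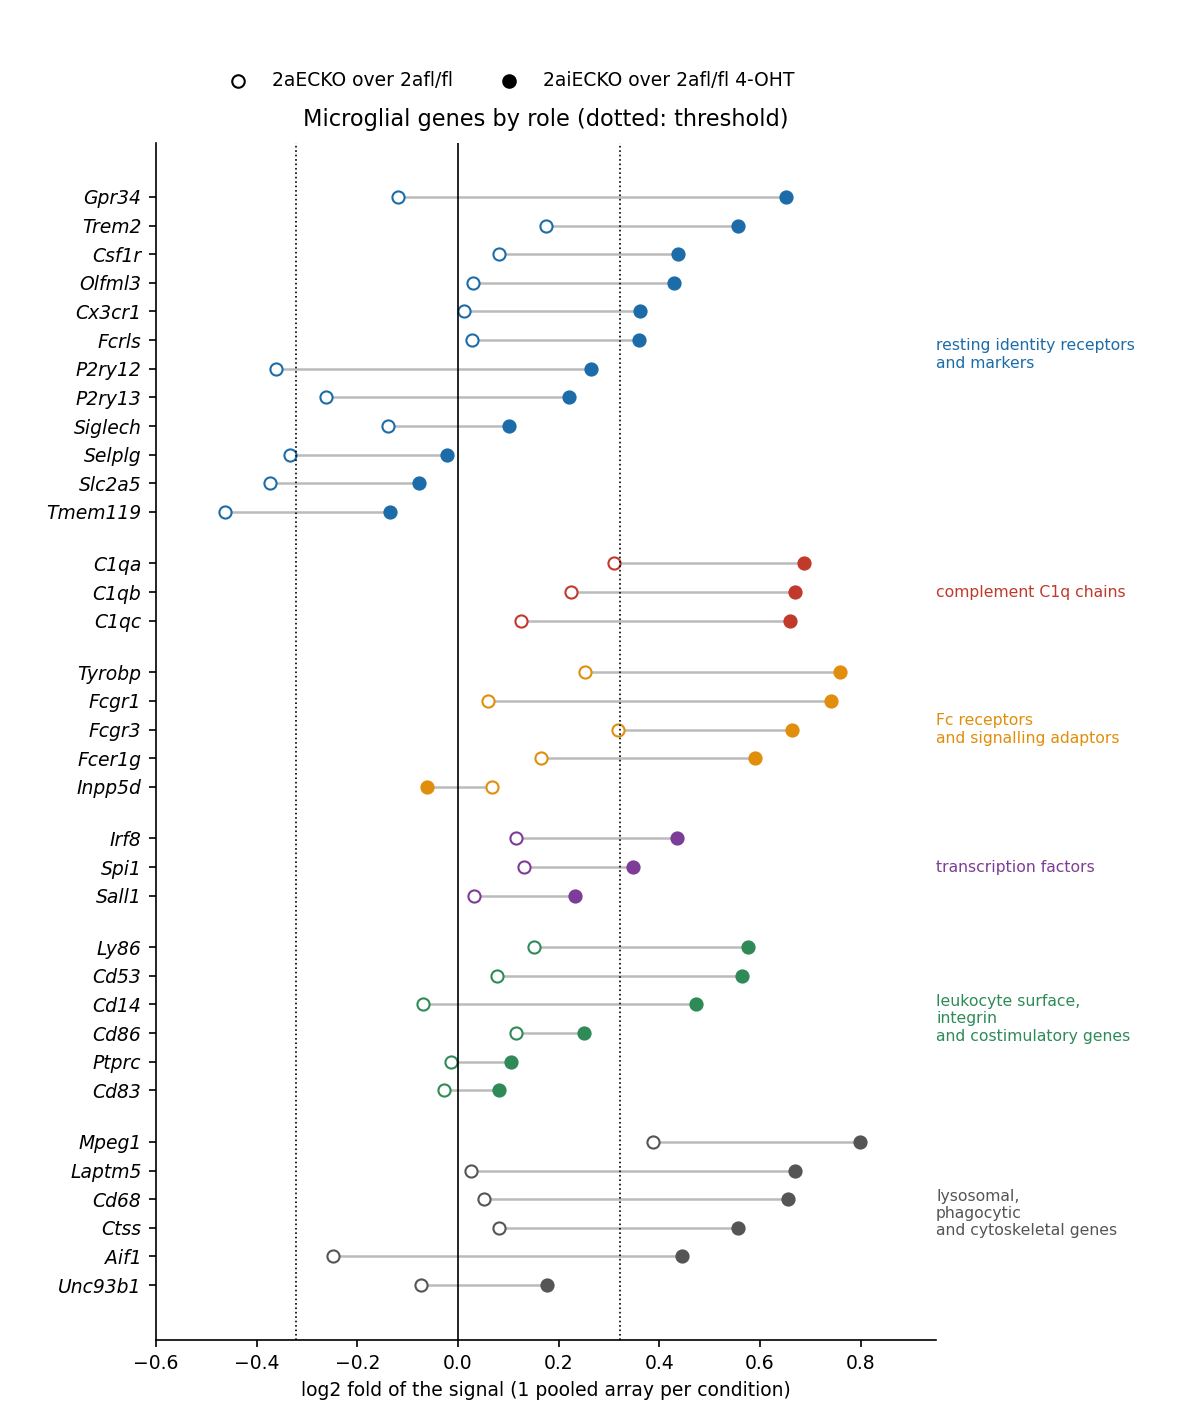
Log2 fold of each of the 35 microglial genes (x axis) in 2aECKO over 2afl/fl (open circles) and in 2aiECKO over the 4-OHT control (filled circles), grouped by role, with 1 pooled array per condition and dotted lines at the threshold. The filled circle lies to the right of the open circle for 34 of 35 genes, the exception being Inpp5d.

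Resting identity genes divided within themselves. In 2aiECKO 6 of 12 were higher and 0 lower, and in 2aECKO 0 were higher and 4 lower, which are all of the genes lower in that model. Csf1r, the receptor on which microglial survival depends, read 1401 in 2afl/fl, 1482 in 2aECKO, 1228 in the 4-OHT control and 1663 in 2aiECKO. Its log2 folds were 0.08 and 0.44. Cx3cr1, the receptor for the neuronal chemokine Cx3cl1, had signals of 432 and 435 in the first pair and of 299 and 385 in the second, log2 folds of 0.01 and 0.36. Both are defining markers of microglia, and both were present in every pool with little difference in the first pair and a higher value in 2aiECKO.

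The other 4 genes of the resting group that were higher in 2aiECKO were Gpr34, Trem2, Olfml3 and Fcrls. Gpr34, a lysophosphatidylserine receptor, read 87.6 in 2afl/fl, 80.7 in 2aECKO, 63.8 in the 4-OHT control and 100.2 in 2aiECKO, and its log2 fold of 0.65 in 2aiECKO was the largest of the group. Trem2, a lipid-sensing receptor that signals through Tyrobp, had 129.9 and 147 in the first pair and 129 and 189 in the second, log2 folds of 0.17 and 0.56. Trem2 thus had a positive fold in both models, past the threshold in 2aiECKO alone, and with its probe sets averaged the log2 fold in 2aiECKO was 0.18, short of it. Olfml3, a secreted matrix protein, had 279 and 285 in the first pair and 184 and 248 in the second. Fcrls, an Fc receptor-like protein used to mark microglia against blood monocytes, had 408 and 416, and 382 and 491. Both were near equal to the control in 2aECKO, with a log2 fold of 0.03 each, and in 2aiECKO they had 0.43 and 0.36.

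Tmem119, P2ry12, Slc2a5 and Selplg were the genes lower in 2aECKO. Tmem119, a transmembrane protein that marks parenchymal microglia, fell from 137 in 2afl/fl to 99.3 in 2aECKO, and its log2 fold of -0.46 ranked 38 from the bottom of all genes tested. In the second pair it had 111 and 101, a log2 fold of -0.14. P2ry12, the ADP receptor that steers microglial processes towards injury, had 467 and 363 in the first pair, a log2 fold of -0.36, and 384 and 461 in the second, a log2 fold of 0.26. P2ry12 was therefore lower in 2aECKO and on the other side of 0, short of the threshold, in 2aiECKO. Selplg, the P-selectin ligand, had 112 and 88.9 in the first pair and 71.3 and 70.3 in the second, log2 folds of -0.33 and -0.02. Slc2a5, a fructose transporter, had 70.3 and 54.2, a log2 fold of -0.37, and was below 50 in both pools of the second pair, at 43.1 and 40.8. Slc2a5 was the gene nearest the minimum, with a mean signal of 50.9. P2ry13, a purine receptor beside P2ry12, and Siglech, a sialic acid-binding lectin, lay in between in both models, with log2 folds of -0.26 and -0.14 in 2aECKO and 0.22 and 0.10 in 2aiECKO.

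Dim genes passed the fold more often, so the counts were also set against genes of like signal. Of the 35 genes, 19 had a mean signal of 50 to 200. In this range 3 were lower in 2aECKO, against 2.7% of all genes in it, and 9 were higher in 2aiECKO, against 3.04%.

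Complement C1q is the recognition part of the classical complement pathway, and in brain its chains are made mainly by microglia. The 3 chains had nearly equal folds in 2aiECKO and smaller folds, all positive, in 2aECKO. C1qa read 457 in 2afl/fl, 567 in 2aECKO, 463 in the 4-OHT control and 747 in 2aiECKO. C1qb had 550.5 and 643, and 555 and 884. C1qc had 414 and 451, and 422 and 667. In 2aiECKO all 3 were higher, with log2 folds of 0.69, 0.67 and 0.66 in that order, which ranked 19, 20 and 23 from the top of 12426 genes. In 2aECKO the log2 folds were 0.31, 0.22 and 0.12, and that of C1qa, at 1.24-fold, fell just short of the threshold.

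Of the 5 Fc receptors and adaptors, 4 were higher in 2aiECKO and all lay in between in 2aECKO. Tyrobp, the adaptor that carries signals of Trem2 and related receptors, had signals of 461 and 548 in the first pair and of 456 and 772 in the second, log2 folds of 0.25 and 0.76. Fcer1g, the common Fc receptor gamma chain, had 231 and 259.5, and 202 and 304, log2 folds of 0.17 and 0.59. Both adaptors were thus higher in 2aiECKO and in between in 2aECKO. Fcgr3, a low-affinity receptor for immunoglobulin G, had 228 and 285, and 222 and 352. Its log2 fold of 0.66 in 2aiECKO was past the threshold, and that in 2aECKO, at 1.247-fold, was just under it. Fcgr1, the high-affinity receptor, had 54.6 and 56.9, and 54.3 and 90.8, a log2 fold of 0.74 in 2aiECKO that its other probe set does not share, as described below. Inpp5d, the lipid phosphatase SHIP1 that restrains these receptors, had 126 and 132, and 116 and 111, log2 folds of 0.07 and -0.06. It was the only gene of the 35 with a smaller fold in 2aiECKO than in 2aECKO, by -0.13.

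Resting genes stood below complement and Fc receptor genes in both models. The median log2 fold was -0.13 for resting genes, 0.22 for C1q and 0.17 for Fc receptors and adaptors in 2aECKO, and 0.31, 0.67 and 0.66 in 2aiECKO. The C1q median thus lay above the resting median by 0.35 in 2aECKO and by 0.36 in 2aiECKO, and the Fc receptor median by 0.29 and 0.35. What differed between the models was the place of 0. In 2aECKO 7 of 12 resting genes had a log2 fold below 0 and all 3 C1q chains and 5 Fc receptor genes above it, whereas in 2aiECKO 9 of 12 resting genes were also above it. The ranges overlapped. In 2aECKO Trem2 alone of the resting genes lay within the range of C1q, of 0.12 to 0.31. It was counted as a resting gene although it signals through Tyrobp, which was counted with the adaptors. The next highest resting gene in 2aECKO, Csf1r at 0.08, lay below the C1q range. In 2aiECKO Gpr34, at 0.65, lay within the range of the Fc receptor genes, of -0.06 to 0.76.

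**Figure D2:**
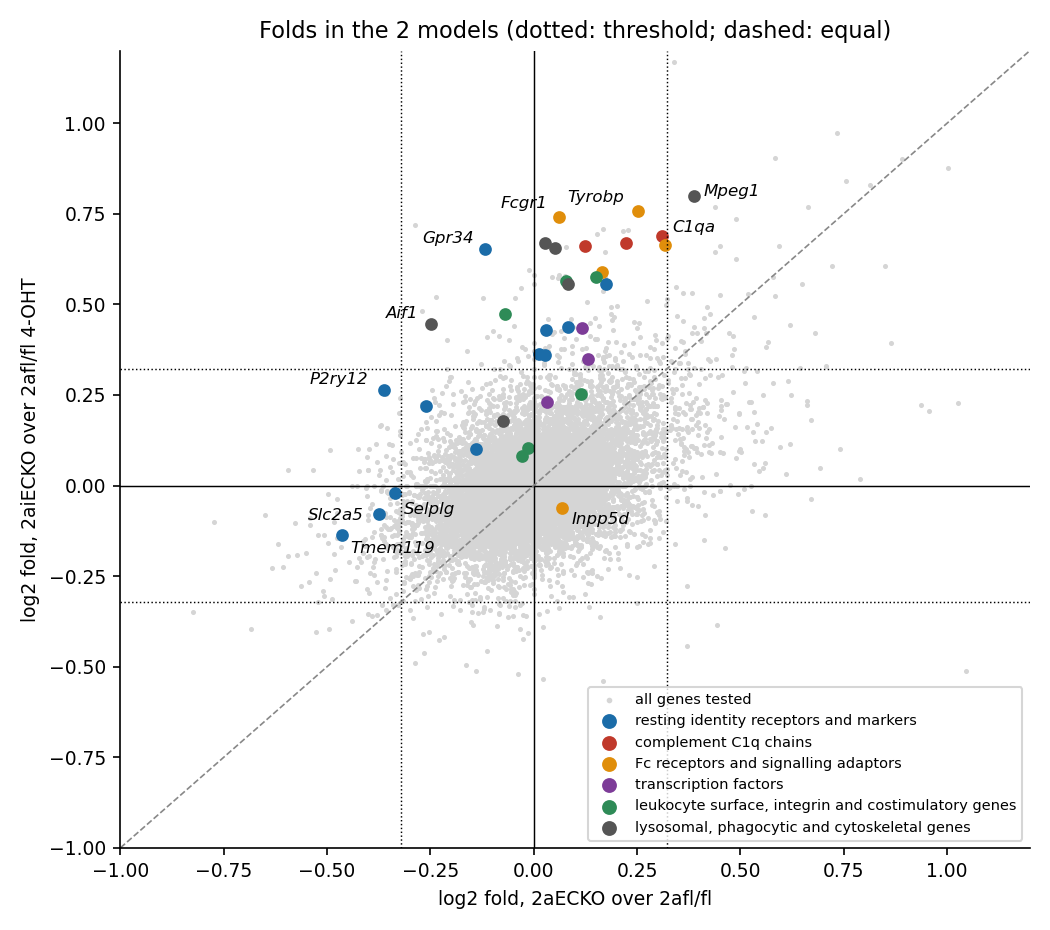
Log2 fold in 2aiECKO (y axis) against log2 fold in 2aECKO (x axis) for the 35 microglial genes, coloured by role, over all 12426 genes tested in grey, of which 2 lie outside the axes; dotted lines mark the threshold and the dashed line equal folds. The microglial genes lie above the dashed line except Inpp5d, with Tmem119, Slc2a5, Selplg and P2ry12 to the left of the dotted line at the lower fold.

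The order of the genes was alike in both models although the level was not. Across the 35 genes Pearson's r between the log2 folds of the models was 0.71 and Spearman's rho 0.69, against 0.43 and 0.40 across all genes tested. The comparisons share no array, and genes are not independent replicates, so the values are a description. The difference of the log2 fold, 2aiECKO minus 2aECKO, had a median of 0.38 over the 35 genes and of 0.00 over all genes. By role it was 0.35 for resting genes, 0.45 for C1q, 0.42 for Fc receptors and adaptors, 0.22 for transcription factors, 0.28 for leukocyte surface genes and 0.54 for lysosomal genes. In 2aiECKO 20 of the 35 genes ranked among the 100 largest log2 folds of all 12426 genes. In 2aECKO 0 did, and the highest, Mpeg1, ranked 149. Since 100 is a small part of 12426, 0 of 35 is near the share of all genes and is not read as a result.

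The transcription factors of the list had smaller folds. Spi1, which encodes PU.1, the ETS factor required for all macrophages, had signals of 73.4 and 80.4 in the first pair and 59.5 and 75.8 in the second, log2 folds of 0.13 and 0.35. Irf8, a partner of PU.1 in microglia, had 57.5 and 62.3, and 55.0 and 74.4, log2 folds of 0.12 and 0.43. Both were higher in 2aiECKO. Sall1, a zinc finger factor that keeps the resting state and is also expressed outside microglia, had log2 folds of 0.03 and 0.23 and was in between in both models.

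PU.1 binds a purine-rich motif with the core GGAA, and interferon regulatory factors bind repeats of GAAA, so the promoters of the list were searched for letters of both kinds in the 250 bases before the start site, on both strands. Windows came from RefSeq on build GRCm38.p6 and were given for 26 of 37 genes, and a gene with several start sites was counted once if any window matched. GGAAGT occurred in 11 of 26, or 42.3%, against 22.2% of 27025 genes. The longer GAGGAAGT, which contains it, occurred in 2 of 26, or 7.69%, against 2.79%, and GAAANNGAA occurred in 2 of 26, or 7.69%, against 8.18%. The 11 genes with GGAAGT were C1qb, C1qc, Fcgr1, Fcrls and Laptm5, which were higher in 2aiECKO, P2ry12, Ptprc, Sall1, Siglech and Inpp5d, which were not, and Itgax, which was below 50. A match of letters is a description, and not a bound site. The 100 bases before the start are shown for a C1q chain, a lysosomal gene and P2ry12, a resting marker among those lower in 2aECKO. Those of the gene whose fold ran the other way and of the gene with an interferon-type match nearest its start follow. They are written along the gene from 5′ to 3′, with the match in capitals (ACTTCC is GGAAGT on the opposite strand):
C1qb, chr4:136886201-136886300, minus strand: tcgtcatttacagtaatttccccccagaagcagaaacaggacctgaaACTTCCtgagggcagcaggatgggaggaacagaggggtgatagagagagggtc
Laptm5, chr4:130913216-130913315, plus strand: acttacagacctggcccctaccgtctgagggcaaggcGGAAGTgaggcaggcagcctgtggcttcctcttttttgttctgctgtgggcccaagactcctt
P2ry12, chr3:59262986-59263085, minus strand: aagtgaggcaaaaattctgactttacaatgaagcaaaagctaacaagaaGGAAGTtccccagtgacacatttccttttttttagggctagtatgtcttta
Inpp5d, chr1:87620212-87620311, plus strand: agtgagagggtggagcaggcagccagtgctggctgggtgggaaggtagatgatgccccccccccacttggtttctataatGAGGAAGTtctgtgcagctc
Ctss, chr3:95526686-95526785, plus strand: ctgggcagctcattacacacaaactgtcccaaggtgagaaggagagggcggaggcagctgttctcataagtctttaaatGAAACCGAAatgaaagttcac

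In C1qb the match lies at -53 to -48 from the start, in Laptm5 at -63 to -58, in P2ry12 at -51 to -46, and in Inpp5d, where it is the longer GAGGAAGT, at -20 to -13. In Ctss the GAAANNGAA match lies at -21 to -13. The log2 folds of these GGAAGT-holding genes in 2aiECKO were 0.67 for C1qb, 0.67 for Laptm5 at its brightest probe set, 0.26 for P2ry12 and -0.06 for Inpp5d.

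Leukocyte surface genes divided into 3 that were higher in 2aiECKO and 3 that were not. Ly86, the MD-1 partner of a toll-like receptor relative, had signals of 500.4 and 555 in the first pair and 413 and 615 in the second, log2 folds of 0.15 and 0.58. Cd53, a leukocyte tetraspanin, had 166 and 175, and 144 and 213, log2 folds of 0.08 and 0.56. Cd14, a coreceptor for lipopolysaccharide, was dim, with 56.1 and 53.5, and 53.0 and 73.5, log2 folds of -0.07 and 0.47. These genes are shared by many myeloid cells. Ptprc, the pan-leukocyte phosphatase CD45, had 85.7 and 84.9, and 68.4 and 73.6. Cd83 and Cd86, costimulatory genes of antigen-presenting cells, were likewise in between, and the log2 folds of Ptprc, Cd83 and Cd86 in 2aiECKO were 0.10, 0.08 and 0.25.

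Lysosomal and phagocytic genes included the largest positive fold of the list in each model. Mpeg1, which encodes the pore-forming macrophage protein perforin-2, read 229 in 2afl/fl, 299.9 in 2aECKO, 232 in the 4-OHT control and 404 in 2aiECKO. Its log2 folds of 0.39 and 0.80 were those largest positive folds, and it was the only gene of the list higher in both. Ctss, the lysosomal protease cathepsin S, had 934 and 989, and 962 and 1415, log2 folds of 0.08 and 0.56. Cd68, a lysosomal membrane glycoprotein, had 123 and 127, and 119.8 and 189, log2 folds of 0.05 and 0.66. Laptm5, a lysosomal membrane protein of blood-lineage cells, had 274 and 279, and 234 and 373, log2 folds of 0.03 and 0.67 at its brightest probe set, and with its probe sets averaged 0.28 in 2aiECKO. Apart from Mpeg1 these genes were thus near 0 in 2aECKO and higher in 2aiECKO. Aif1, the calcium-binding protein Iba1 used to stain microglia, had 133 and 112, and 89.7 and 122, log2 folds of -0.25 and 0.45. Unc93b1, which carries toll-like receptors to endosomes, was in between in both models, with log2 folds of -0.07 and 0.18.

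Counts by role followed these values. In 2aiECKO the share higher was 3 of 3 C1q chains, 4 of 5 Fc receptors and adaptors, 5 of 6 lysosomal genes, 2 of 3 transcription factors, 3 of 6 leukocyte surface genes and 6 of 12 resting genes. Among the 23 genes outside the resting group the median was 0.56 in 2aiECKO, with 17 higher and 0 lower, and 0.08 in 2aECKO, with 1 higher and 0 lower. Only 3 genes, Tmem119, Selplg and Slc2a5, had a log2 fold below 0 in both models, and all 3 are resting markers. A further 9 were below 0 in 2aECKO and above it in 2aiECKO, and 22 were above 0 in both. Some of these folds lay near 0, as of Ptprc and Cd83 in 2aECKO, at -0.01 and -0.03. Of all 12426 genes tested, 5757 were above 0 in 2aECKO and 5771 in 2aiECKO. Their direction in both models together was not counted. The 8 genes in between in both models were P2ry13, Siglech, Inpp5d, Sall1, Ptprc, Cd83, Cd86 and Unc93b1.

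The 4 pools were also placed on a common scale by quantile normalization over all arrays, which sets levels of each gene side by side but does not remove the differences of age and 4-OHT. On this scale 31 of 35 genes had their highest level in 2aiECKO, 2 in 2afl/fl, 2 in the 4-OHT control and 0 in 2aECKO. The lowest level was in 2afl/fl for 20 genes, in 2aECKO for 12, in the 4-OHT control for 3 and in 2aiECKO for 0. The same counts were not made over all genes tested, so these have no share to be set against and are not read as a result about the microglial genes. The controls themselves differed. The 4-OHT control had the higher level for 28 of 35 genes, against 7454 of all 12426 genes tested. Its median log2 difference from 2afl/fl was 0.23, against 0.06 over all genes. That difference was 0.07 for resting genes, 0.32 for C1q and 0.34 for Fc receptors and adaptors. The difference between the knockouts, 2aiECKO minus 2aECKO, was above 0 for 35 of 35 genes, against 7588 of all 12426. Its median was 0.62, against 0.07 over all genes. C1qa had log2 levels of 8.68 in 2afl/fl, 8.99 in 2aECKO, 9.00 in the 4-OHT control and 9.69 in 2aiECKO. P2ry12 had 8.71, 8.33, 8.74 and 9.01 in the same order. C1qa was thus level between 2aECKO and the 4-OHT control, whereas P2ry12 was level between the controls and lower in 2aECKO.

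**Figure D3:**
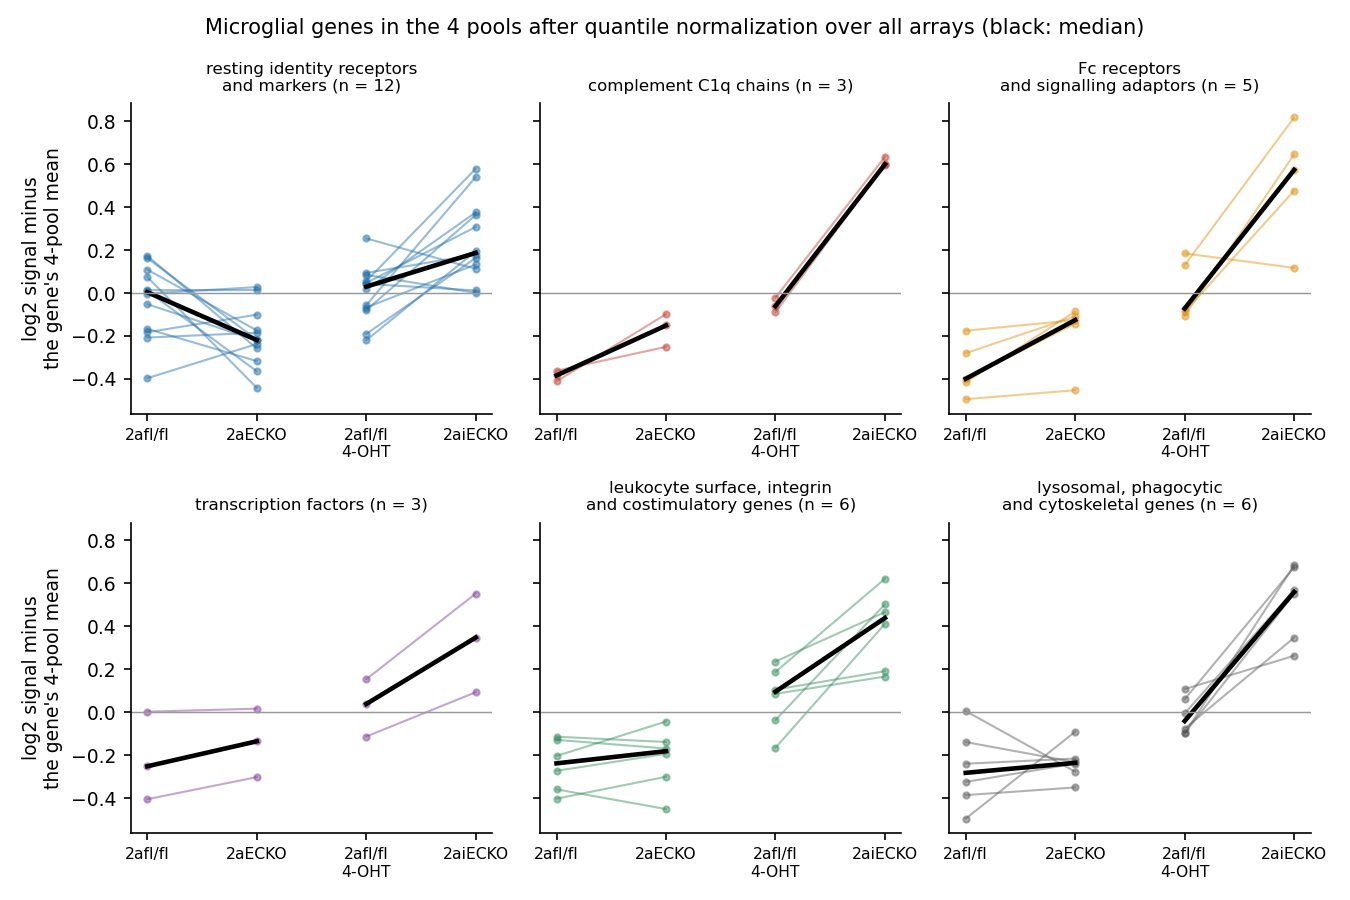
Log2 level of each of the 35 genes in the 4 pools after quantile normalization over all arrays, minus the mean of that gene over the pools (y axis), by role; lines join the pools of a pair and the black line is the median of the role. The medians of the C1q, Fc receptor and lysosomal genes lie lowest in 2afl/fl and highest in 2aiECKO, with single exceptions such as Inpp5d, Aif1 and Unc93b1, and the median of the resting genes is lowest in 2aECKO.

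Where a gene had several probe sets, the folds mostly had one direction in 2aiECKO. The 37 genes had 54 probe sets annotated with 1 symbol, 47 of them with a mean signal of at least 50. Of the measured genes 8 had more than 1 of these. In 2aiECKO all probe sets were higher for C1qb (log2 folds of 0.63 to 0.67), Csf1r (0.39 to 0.44), Cx3cr1 (0.36 to 0.43) and Irf8 (0.40 to 0.43). For Fcgr1 and Laptm5 the probe sets disagreed. The other probe set of Fcgr1 had signals of 69.4 and 71.0 in the first pair and of 52.3 and 53.6 in the second, a log2 fold of 0.04 in 2aiECKO. The other probe sets of Laptm5 had log2 folds of 0.16 to 0.22 in 2aiECKO, all short of the threshold. For Inpp5d and Sall1 no probe set was higher. Of the probe sets below 50, that of Trem2 had a log2 fold of -0.19 in 2aiECKO, with signals of 20.3 and 17.7, and that of Cd86 had 0.85, with 43.3 in the knockout. In 2aECKO no probe set of these 8 genes was past the threshold in either direction except one of C1qb, at 0.46.

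**Figure D4:**
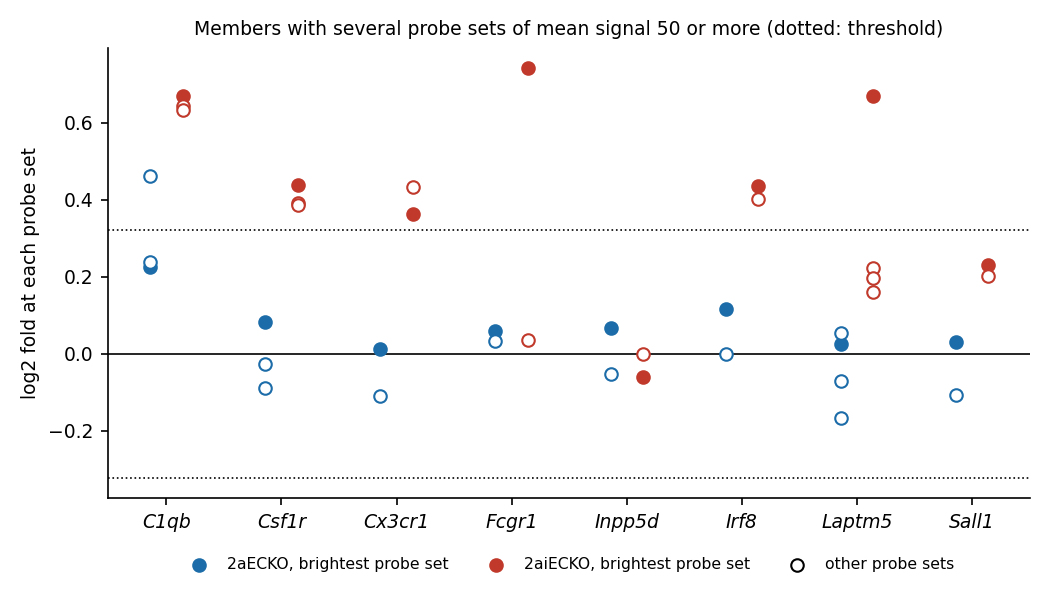
Log2 fold (y axis) at each probe set with a mean signal of at least 50, for the 8 genes that have more than 1, in 2aECKO (blue) and 2aiECKO (red), with filled circles for the brightest probe set and open circles for the others. In 2aiECKO the circles of C1qb, Csf1r, Cx3cr1 and Irf8 all lie above the threshold, and those of Fcgr1 and Laptm5 lie on both sides of it.

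A further list of 40 genes known to be expressed in microglia had a weaker shift. Of these, 34 were matched and 23 had a mean signal of at least 50, with medians of 0.00 in 2aECKO and 0.17 in 2aiECKO. In 2aiECKO 0 were lower, against 0.547% of all genes tested, and 5 were higher, against 1.82%. They were Blnk, a B cell linker adaptor also used by microglia, at 0.58, Adgre1, the macrophage antigen F4/80, at 0.58, Cyba, a subunit of the phagocyte oxidase, at 0.51, Pld4 at 0.37 and Nckap1l, a regulator of actin in blood cells, at 0.36. In 2aECKO Itgb5 and Csf3r were higher, each at 0.33, against 2.04% of all genes tested. Coro1a, an actin-binding protein also made by neurons, and Apbb1ip were lower, at -0.33 and -0.37, against 1.44%. Blnk and Adgre1 had 0.00 and 0.07 in 2aECKO.

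Ligands that act on microglia mostly lay in between in both models. Of 15 ligand and niche genes, 11 were measured, with medians of -0.01 and 0.01. In 2aiECKO 0 were past the threshold, where 1.82% of all genes tested were higher and 0.547% lower. Csf1, a ligand of Csf1r, had signals of 177 and 212 in the first pair and of 128 and 154 in the second, log2 folds of 0.26 and 0.27. Il34, the other ligand of Csf1r, made by neurons, had 259.7 and 205, and 171 and 168, and was lower in 2aECKO at -0.34 with -0.03 in 2aiECKO. Cx3cl1, the ligand of Cx3cr1, had log2 folds of -0.29 and -0.03.

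Complement genes beyond C1q and antigen presentation genes showed little of the pattern. Most cytokine and toll-like receptor genes were too dim to be read either way. Of 7 measured complement genes, C3ar1, the receptor for the C3a fragment, was the one higher in 2aiECKO, at 0.71 against 0.17 in 2aECKO. Of all genes tested, 1.82% were higher in 2aiECKO and 2.04% in 2aECKO. Cfp, Serping1 and Clu, which regulate complement and are made by several cell types, were higher in 2aECKO at 0.45, 0.38 and 0.38, and in 2aiECKO they had 0.13, 0.18 and 0.23. Of 16 inflammatory cytokine and toll-like receptor genes only Ccl4 and Nfkbia reached a mean signal of 50, with log2 folds in 2aiECKO of -0.12 and 0.10. Tnf, Il1b, Il6 and Nos2 were below it, so no change of them was measurable here. Of 5 measured interferon-stimulated genes Ifitm3 was higher in 2aiECKO, at 0.47, and of 5 measured antigen presentation genes B2m was, at 0.40. The class II genes H2-Aa, H2-Ab1 and H2-Eb1 had mean signals below 50.

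Many of the 35 genes are also expressed by other macrophages and leukocytes, so markers of these were measured in the same pools. Of 10 border macrophage genes 9 were measured, with medians of 0.24 in 2aECKO and 0.25 in 2aiECKO. The summed signal of the 9 was 1049 and 1213 in the first pair and 655 and 801 in the second, a log2 ratio of 0.21 and 0.29, whereas the summed signal of the 35 microglial genes had log2 ratios of 0.07 and 0.50. Mrc1, the mannose receptor of border macrophages, was higher in both models, at 0.36 and 0.45, Cbr2 was higher in 2aECKO, at 0.37, and Stab1 and Folr2 were higher in 2aiECKO, at 0.45 and 0.34. The part of border macrophages in the shared genes was not tested. Of 11 monocyte and neutrophil genes only Ccr2, the monocyte chemokine receptor, and Ltf had a mean signal of at least 50, with log2 folds of 0.02 and -0.13 for Ccr2 and -0.13 and -0.07 for Ltf. Their summed signal was 131 and 125 in the first pair and 88.0 and 82.3 in the second. Of 10 lymphocyte genes 3 were measured, with a summed signal of 272 and 245 in the first pair and 199.6 and 182 in the second. S100a8 and S100a9, abundant in neutrophils, had mean signals below 50.

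Markers of other brain cells were measured in the same way. Genes of cell division had medians of -0.02 and 0.09 and none past the threshold, and Mki67 had -0.03 and 0.09. Astrocyte genes had medians of 0.23 and 0.27, led by Gfap, the astrocyte intermediate filament, with log2 folds of 0.89 and 0.90. Neuronal genes had medians of -0.09 and -0.05, oligodendrocyte lineage genes 0.02 and 0.08, endothelial genes 0.05 and -0.13, and mural cell genes -0.03 and -0.15. Vwf, made by endothelium, was the lowest of the endothelial genes in 2aiECKO, at -0.53. The median difference between models over these lists ran from -0.16 for endothelial genes to 0.09 for cell division genes, against 0.38 for the microglial genes. The red cell gene Alas2, given above, differed more between the models than any of these medians.

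**Figure D5:**
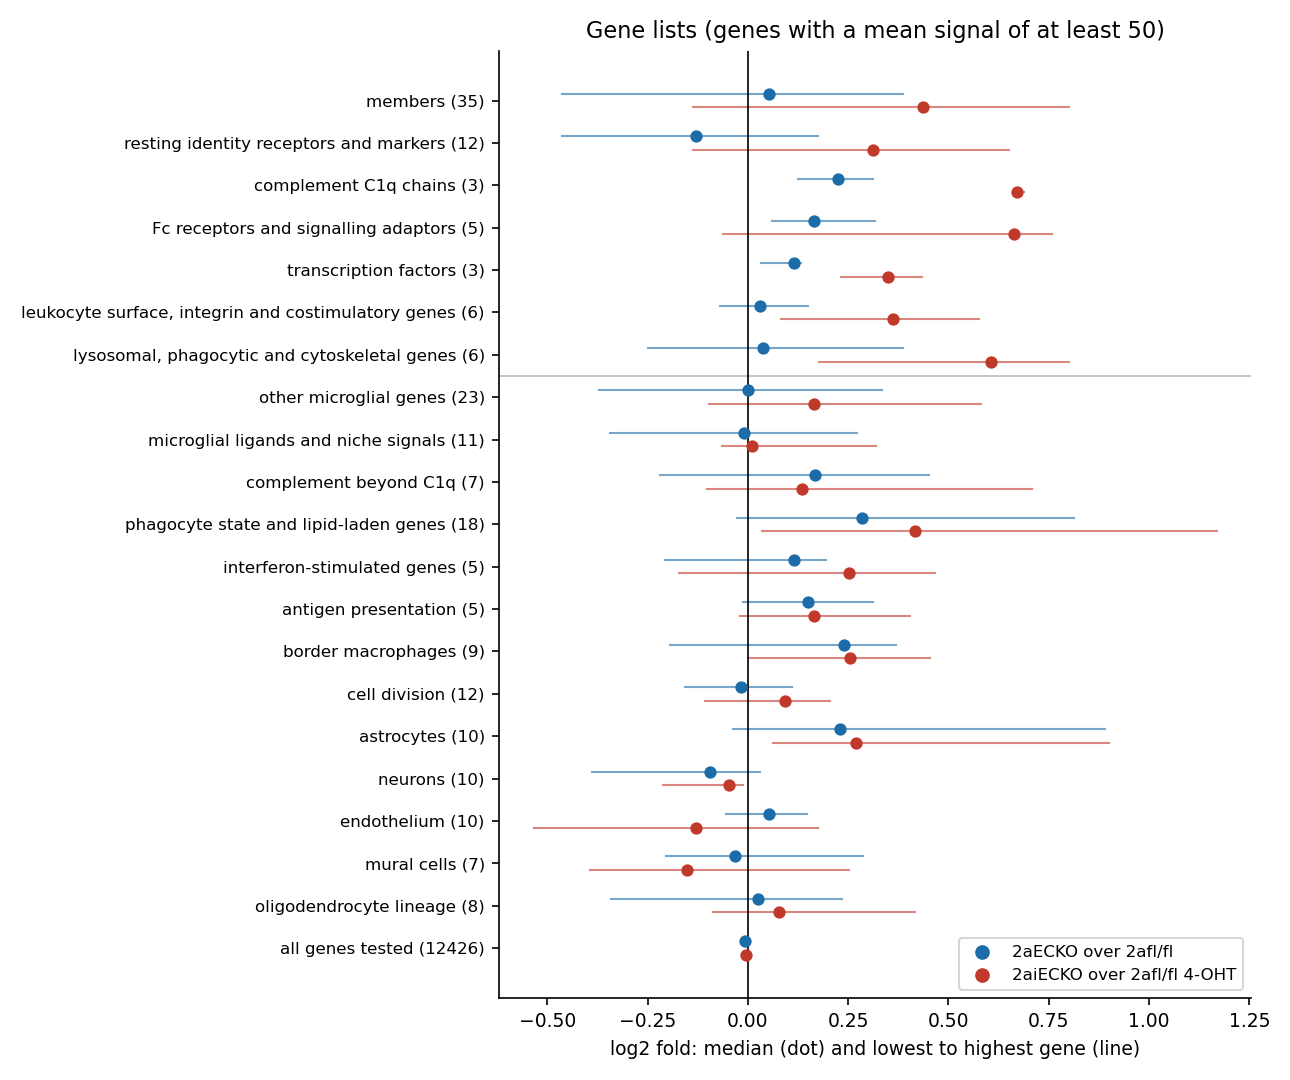
Median log2 fold (dot) and lowest to highest gene (line) of the microglial genes, labelled members, of each of their roles (above the grey line) and of other gene lists (below it), in 2aECKO (blue) and 2aiECKO (red), with the number of measured genes in brackets and dots only for all genes tested. The medians of the microglial genes are 0.05 and 0.44, and those of astrocytes, border macrophages and neurons lie within 0.05 of each other in the models.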

How the data were processed

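RNA of 4 pooled cerebrum samples was measured, each on 1 Affymetrix mouse array. The authors deposited linear intensity values from robust multichip averaging (RMA), background-adjusted and quantile-normalized. For this step the methods give the R package affy and the submitters' processing notes give Partek 6.6, and which was used is not settled here. Sorted log2 values differed by at most 0.07 and 0.05 within the pairs and by as much as 0.79 from one control to the other. Signals of 50 or more were seen at 59.1% to 59.4% of probe sets in the first pair and 49.5% to 49.7% in the second. Precision is limited by the number of arrays.

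The platform annotation gives 1 symbol for 34958 of 45101 probe sets and several for 932, and the other 9211 are unnamed here. Only probe sets with 1 symbol were used, and the probe set with the highest mean log2 over the 4 arrays stood for the gene. Genes with a mean signal (2 to the mean log2) of at least 50 were kept. Differences of at least 25% above the control, the fold of the study's own filter for brain, were counted. So were those at least 20% below it, the inverse of that fold. The study's filter for brain took higher genes only and asked for a signal of 50 in the knockout. With 1 array per condition there was no test and no p-value, and counts are given beside the share of all genes tested. The counting was tested on simulated data.

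The genes of the list, their roles and the other lists were chosen with earlier results of these data known. Signals were given for genes past this threshold in either model, for Csf1r, Cx3cr1 and C1qa and for their chains or partners. Other genes were given by range and count. Outside the list, genes past it, defining genes of other cell types and the 10 genes whose log2 fold in 2aiECKO most exceeded that in 2aECKO were named, leaving out unnamed gene models and sex markers.

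Other settings tried were averaging a gene's probe sets, dropping the less specific ones (_s_at and _x_at), quantile normalization over all arrays, centring the median fold, removing a loess trend (fraction 0.3), no minimum or one of 100, a fold of 1.5, and the other control or the mean of both. Promoter windows came from RefSeq (GRCm38.p6). Proteins were not analysed here. The software was matplotlib 3.10.9, statsmodels 0.14.6, scipy 1.17.1, pandas 2.3.3 and numpy 2.4.6 under Python 3.11.15.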

Additional observations from a re-analysis of the deposited data

Results flagged for a closer look

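Of the 9 microglial genes with a log2 fold below 0 in 2aECKO and above 0 in 2aiECKO, 4 were past the threshold in at least 1 of the models. P2ry12, the ADP receptor of resting microglia, had -0.36 in 2aECKO and 0.26 in 2aiECKO. Gpr34, a lysophosphatidylserine receptor, had -0.12 and 0.65. Cd14, the lipopolysaccharide coreceptor, had -0.069 and 0.47, with signals of 53.0 to 73.5 over the pools, close to the minimum of 50. Aif1, which encodes Iba1, had -0.25 and 0.45. P2ry12 was past the threshold in 2aECKO, and Gpr34, Cd14 and Aif1 in 2aiECKO. Each had 1 probe set among those annotated with 1 symbol. The difference between the models was not tested, since each condition had 1 pooled array.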

How the results depend on the processing

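Values over the microglial genes moved as follows. In 2aiECKO the count higher was 11 at a fold of 1.5 in place of 23, against 0.282% of all genes. In 2aECKO the count higher was 2 with the median fold centred and 2 with quantile normalization over all arrays, against 2.16% and 2.23% of all genes, and 0 at a fold of 1.5 (0.249%), with the mean of both controls (3.36%) and with the other control (8%). The count lower there was 2 at a minimum signal of 100, against 1.11% of all genes, 0 at a fold of 1.5 (0.0724%) and 9 with the other control (16.3%). Against the mean of both controls the median was -0.090 for 2aECKO and 0.55 for 2aiECKO, with a median difference of 0.62. Against the other control the values were -0.22, 0.61 and 0.78. Both of these settings carry the difference between the controls into the fold by construction. The genes measured numbered 32 with the mean of probe sets, 33 without the less specific probe sets, 26 at a minimum of 100 and 37 with none.

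Of 400 recomputed values of single genes and roles, 394 moved by less than the robust standard deviation of all folds. Many of them could hardly move. Centring subtracts the median of all folds, -0.01 in 2aECKO and -0.00 in 2aiECKO, from every value. Averaging probe sets leaves a gene with 1 probe set unchanged. The number 394 is therefore no measure of stability. Some of these 394 values lay near 0 and changed sign. With probe sets averaged, the log2 folds in 2aECKO were -0.01 for Csf1r, -0.05 for Cx3cr1, -0.02 for Laptm5 and -0.04 for Sall1. The median of the leukocyte surface genes there was -0.03. Counts of genes above or below 0 depend on such values. The other 6 values moved by more, all with a change of probe sets. In 2aiECKO these were Trem2 (0.18), Fcgr1 (0.39), Laptm5 (0.28 over the mean of its probe sets and 0.20 without the less specific ones), and the medians of the lysosomal genes (0.50) and of the leukocyte surface genes (0.47). Trem2 and Laptm5 were no longer higher there. No paired analysis was possible because each group holds 1 pooled array. Signals near 50, as of Slc2a5, Fcgr1, Cd14, Cd86 and Irf8, lie closest to the background of the array.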

Other observations

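A list of 22 genes of phagocytes in a lipid-laden state, 18 of them measured, was also followed. In 2aECKO 7 were higher, 0 lower and 11 in between, against 2.04% of all genes higher, and in 2aiECKO 11 were higher, 0 lower and 7 in between, against 1.82%. The medians were 0.28 and 0.42. Abca1, which exports cholesterol, had log2 folds of 0.81 and 0.83. Gpnmb, a glycoprotein of lipid-laden macrophages, read 60.1 in 2afl/fl, 99.9 in 2aECKO, 90.4 in the 4-OHT control and 177 in 2aiECKO, log2 folds of 0.73 and 0.97. Lyz2, the lysozyme of myeloid cells, had 0.66 and 0.77, and Lgals3, galectin-3, had 0.52 and 0.53. Over this list the log2 fold in 2aiECKO exceeded that in 2aECKO by a median of 0.11. Apoc1, an apolipoprotein, had 0.34 and 1.17, and Clec7a, the receptor dectin-1, had 0.23 and 0.71. Apoe, Lpl and Igf1, which other brain cells also make, had 0.28, -0.01 and -0.03 in 2aECKO and 0.32, 0.03 and 0.09 in 2aiECKO.

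Outside the microglial list, the 10 genes whose log2 fold in 2aiECKO most exceeded that in 2aECKO included further genes of blood-lineage cells. Cd52, a leukocyte surface peptide, had -0.29 in 2aECKO and 0.72 in 2aiECKO. Fermt3, the integrin activator kindlin-3 of blood cells, had -0.12 and 0.52. The other genes were Il13ra1, with -0.24 and 0.52, Apoc1, Rara, Calhm2, Eya4, Bco2, and Sorcs2 and Arc. Cd52, Rara, Calhm2, Eya4 and Bco2 were dim, with mean signals of 50.4 to 59.6. Sorcs2 had -0.77 and -0.10 and Arc, an activity-dependent gene of neurons, had -0.59 and 0.04. The place of Sorcs2 and Arc on the list thus came from a lower value in 2aECKO. Eya4 and Bco2 were also lower there, at -0.36 each, and had 0.26 and 0.25 in 2aiECKO.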
